A study of Mus musculus with 6 samples.

Results

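The proteasome genes of the mouse heart were compared between 3 young and 3 old animals. They were taken as every gene whose symbol begins with Psma to Psmg followed by a digit, which gave 50 of the 18005 genes listed. By role, 15 encode subunits of the core particle, 3 the inducible catalytic subunits of the immunoproteasome and 17 subunits of the regulatory particle. A further 6 encode other activators or an inhibitor, 7 encode assembly chaperones, and Psmc3ip and Psme3ip1 match the symbol rule without being subunits. Every heart was wild type and received no treatment, and the labels name no age in months, strain or sex. The whole heart was sampled, so in these bulk libraries fewer cells of a type and less RNA per cell cannot be told apart. The titles number the mice 1 to 3 within each group, and nothing further describes how the animals were sampled.

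The proteasome degrades proteins tagged with ubiquitin. Its barrel-shaped core particle is a stack of alpha and beta rings, with the outer alpha rings gating entry and the beta subunits Psmb5, Psmb6 and Psmb7 cutting the protein chain. The regulatory particle caps the core, recognises and removes ubiquitin, and unfolds the substrate with a ring of ATPases. Interferon-gamma induces Psmb8, Psmb9 and Psmb10, which replace the constitutive catalytic subunits and favour peptides for presentation to T cells. In the heart muscle, the proteasome takes part in the turnover of sarcomere proteins.

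Libraries held 11295280 to 12514005 counts, and the proteasome genes took 0.445% to 0.481% of them. The normalization factors were 1.01 to 1.04 in young and 0.955 to 0.988 in old libraries, without overlap. The summed CPM (read counts scaled to a common library total) of 8 cardiomyocyte markers did not overlap either. It was 55880 to 58900 in young and 68060 to 74090 in old hearts. Of the 8 genes, 2 were called higher in old hearts, Actc1 (log2 fold change 1.08) and Tnni3 (0.35). Actc1 weighs heavily in the sum, with a mean CPM of 8207 in young and 17340 in old hearts. The median log2 fold change of the 8 was 0.09, and Myh6 (-0.02), Actn2 (-0.02) and Ryr2 (-0.04) lay slightly below 0. The summed CPM of 15 leukocyte markers overlapped, at 153.9 to 174.6 in young and 162.4 to 201.7 in old hearts, and 1 of the 15 was at 0 in at least 1 library. Of the 13 leukocyte markers tested, Cd68 (0.54), Cd3e (1.59) and Cd3g (1.83) were higher in old hearts and Ptprc (-0.46) was lower. Counts were low for Cd3e (3 to 7 in young and 11 to 14 in old libraries) and Cd3g (5 to 6 and 14 to 27). Cd4 did not pass, and Cd8a and Nkg7 were not tested. The summed markers of endothelial cells (1609 to 1838 in young, 1311 to 1696 in old), fibroblasts (1380 to 1436 and 1373 to 1714) and red blood cells (2160 to 16070 and 3191 to 6797) overlapped too. Among them Kdr (-0.54), Tcf21 (-0.51) and Hba-a2 (-1.51) were lower in old hearts and Lum (0.28) was higher. Of these 10 marker calls, Actc1, Cd68 and Cd3g held with each library left out. The part of cell composition in the proteasome results was not tested.

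Of the transcripts of the core particle, 7 of 14 tested were higher in old hearts, as were 2 of 17 of the regulatory particle, and no immunoproteasome subunit passed the test. The count test of edgeR covered 49 of the 50 genes. At an adjusted p under 0.05 it called 9 higher in old hearts (18.4%, against 11.4% of all 12893 genes tested) and 1 lower (against 10.6% of all genes), so that 10 of 49 changed where 22% of all genes did. The median log2 fold change, old over young, was 0.09 over the 49 genes and -0.01 over all genes tested. In the core particle none fell, and the median was 0.23. In the regulatory particle none fell either, with a median of 0.09 and a range of -0.19 to 0.40. The inhibitor Psmf1 was the gene that fell. At an unadjusted edgeR p under 0.05, 15 of the 49 genes passed, as did 4640 of all 12893 genes tested. The count of higher genes was 2 without young 1, 2 without young 3 and 4 without old 1, and that of core subunits was 1, 1 and 2. With any 1 of these 3 libraries left out, the count of lower genes was 0. Psmb3 and Psmd14 were called with each library left out. The 14 core fold changes were all above 0 in this fit, while 13 were with upper-quartile scaling, 12 with library size alone and 9 once the trend over gene length was removed. In the same 3 settings the median over all 49 genes was 0.04, 0.01 and -0.01. Removing the length trend lowered the core median to 0.09 and the core subunits called higher to 1, and all 14 lie in a class of short genes of which 18.1% were called higher.

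**Figure D1:**
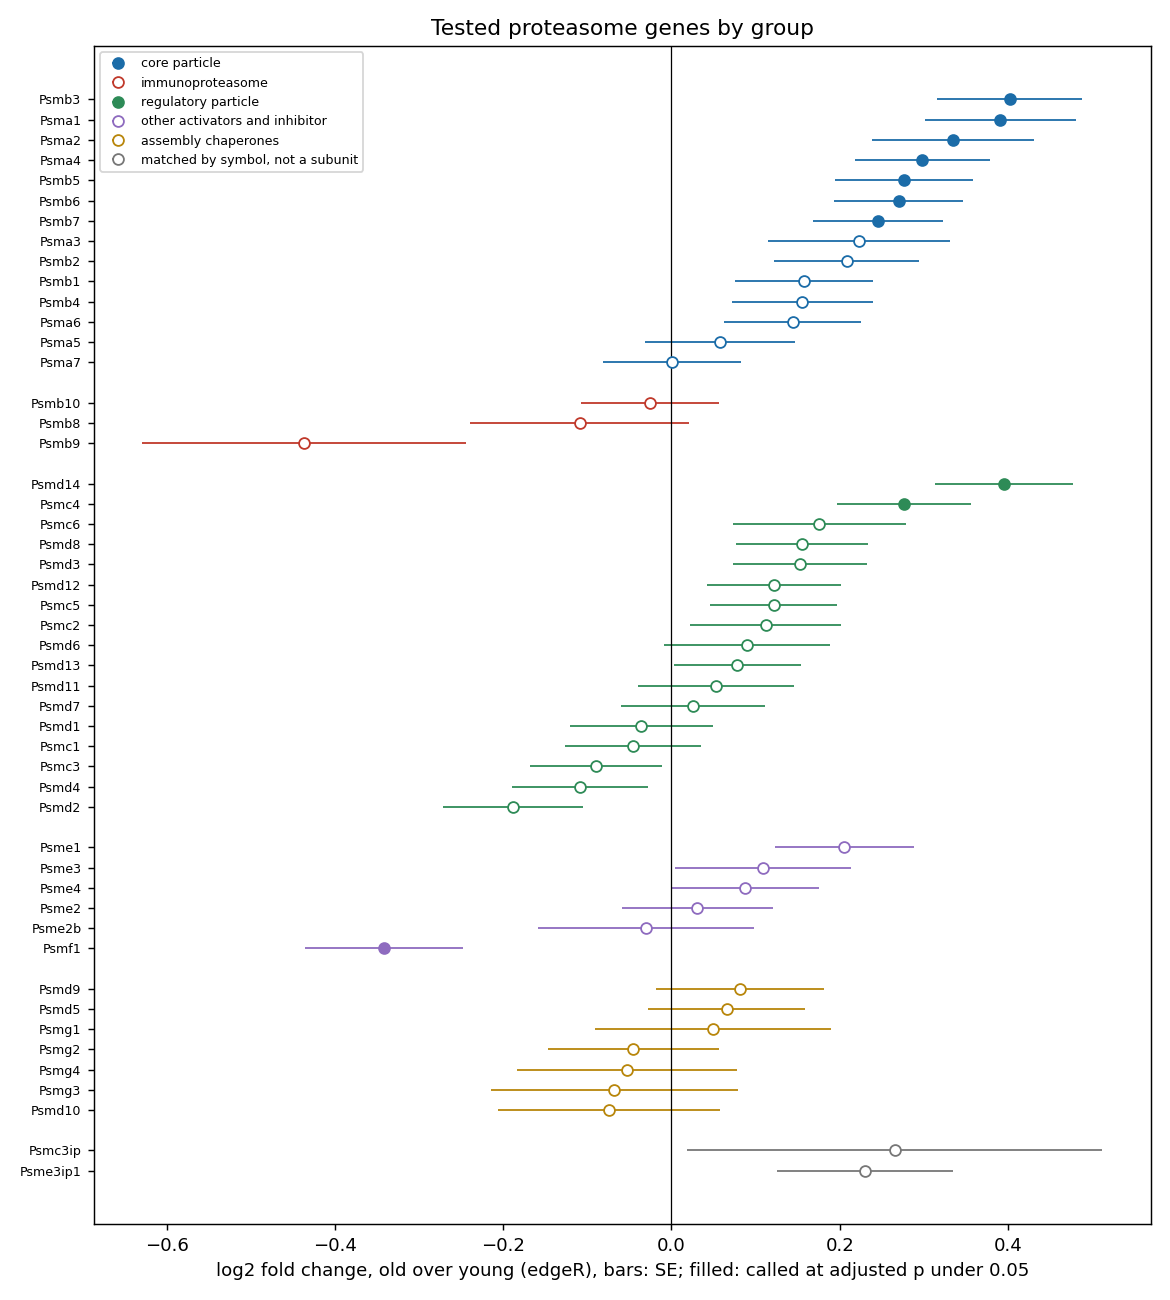
Log2 fold change (x axis, old over young, edgeR) of each of the 49 tested proteasome genes (rows, grouped by role), with bars of 1 standard error and filled points for genes called at an adjusted p under 0.05. All 14 core subunits lie above 0 (12 of 14 with library size alone), with 7 filled, and the 3 immunoproteasome subunits lie below 0, none filled.

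Among the alpha ring subunits, which form the gate of the core particle, Psma1, Psma2 and Psma4 rose and the other 4 tested did not pass. Psma1 stood at 83.6, 94.4 and 80.7 CPM in young 1 to 3 and at 120.0, 113.7 and 105.3 CPM in old 1 to 3. Each old heart was above every young heart, and the log2 fold change was 0.39 ± 0.09 (SE, edgeR adjusted p = 0.01). Psma2 measured 84.5, 102.2 and 83.5 CPM in young hearts and 119.2, 107.2 and 114.1 CPM in old ones. Young 2 was the highest of the young hearts for Psma2 and lay near the lowest old heart, old 2, and the log2 fold change was 0.33 ± 0.10 (edgeR adjusted p = 0.028). Psma4 was at 86.1, 88.7 and 80.9 CPM against 109.8, 100.5 and 104.1 CPM, with a clear gap between the groups. Its log2 fold change was 0.30 ± 0.08 (edgeR adjusted p = 0.021). The calls of Psma2 and Psma4 ended when young 1, young 3 or old 1 was left out (highest adjusted p over all alternatives 0.16 and 0.15), and that of Psma1 without young 1 or young 3 (0.057). Psma2 and Psma4 also lost their calls with library size alone and with the length trend removed. Of 18 alternatives, Psma2 was called in 9, Psma4 in 10 and Psma1 in 16. The remaining alpha subunits Psma3, Psma5, Psma6 and Psma7 had log2 fold changes of 0.22, 0.06, 0.14 and 0.00. Psma8, an alpha subunit made in germ cells, had 3 to 6 counts in young and 8 to 11 counts in old libraries and was too low to be tested.

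The beta ring holds the active sites. Psmb3, Psmb5, Psmb6 and Psmb7 rose, and the other 3 beta subunits did not pass. In CPM every old heart was above every young heart for all 7 (against 19.6% of all genes tested), and on FPKM for 5 of the 7, without Psmb1 and Psmb4 (against 13.8%). Psmb3, a structural beta subunit without catalytic activity, was at 94.0, 99.5 and 85.5 CPM in young hearts and at 128.4, 116.6 and 123.7 CPM in old ones. Its groups were well apart, and its log2 fold change of 0.40 ± 0.09 was the largest in the core particle (edgeR adjusted p = 0.007). Psmb5, which carries the chymotrypsin-like activity, measured 102.6, 116.6 and 105.3 CPM against 134.3, 129.9 and 128.9 CPM. The old hearts lay close together above young 2, the highest young heart, and the log2 fold change was 0.28 ± 0.08 (edgeR adjusted p = 0.031). Psmb6, the caspase-like subunit, measured 165.7, 168.2 and 163.9 CPM against 200.5, 193.0 and 206.5 CPM. The young hearts differed little from each other and the old hearts were all higher, and the log2 fold change was 0.27 ± 0.08 (edgeR adjusted p = 0.027). Psmb7, the trypsin-like subunit, measured 167.0, 170.8 and 159.7 CPM against 196.6, 192.0 and 201.2 CPM. The groups were again apart, at a log2 fold change (old over young) of 0.25 ± 0.08 (edgeR adjusted p = 0.041). The calls of Psmb5 and Psmb6 ended when young 1, young 3 or old 1 was left out (highest adjusted p over all alternatives 0.41 and 0.30, both with the length trend removed). The call of Psmb7 was lost when any 1 library other than old 2 was left out (highest 0.45). The calls of Psmb5, Psmb6 and Psmb7 were lost with upper-quartile scaling and with library size alone as well. Of 18 alternatives, Psmb5 and Psmb6 were called in 9 each and Psmb7 in 5. Psmb1, Psmb2 and Psmb4 had log2 fold changes of 0.16, 0.21 and 0.16 and edgeR adjusted p-values of 0.19, 0.11 and 0.21.

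**Figure D2:**
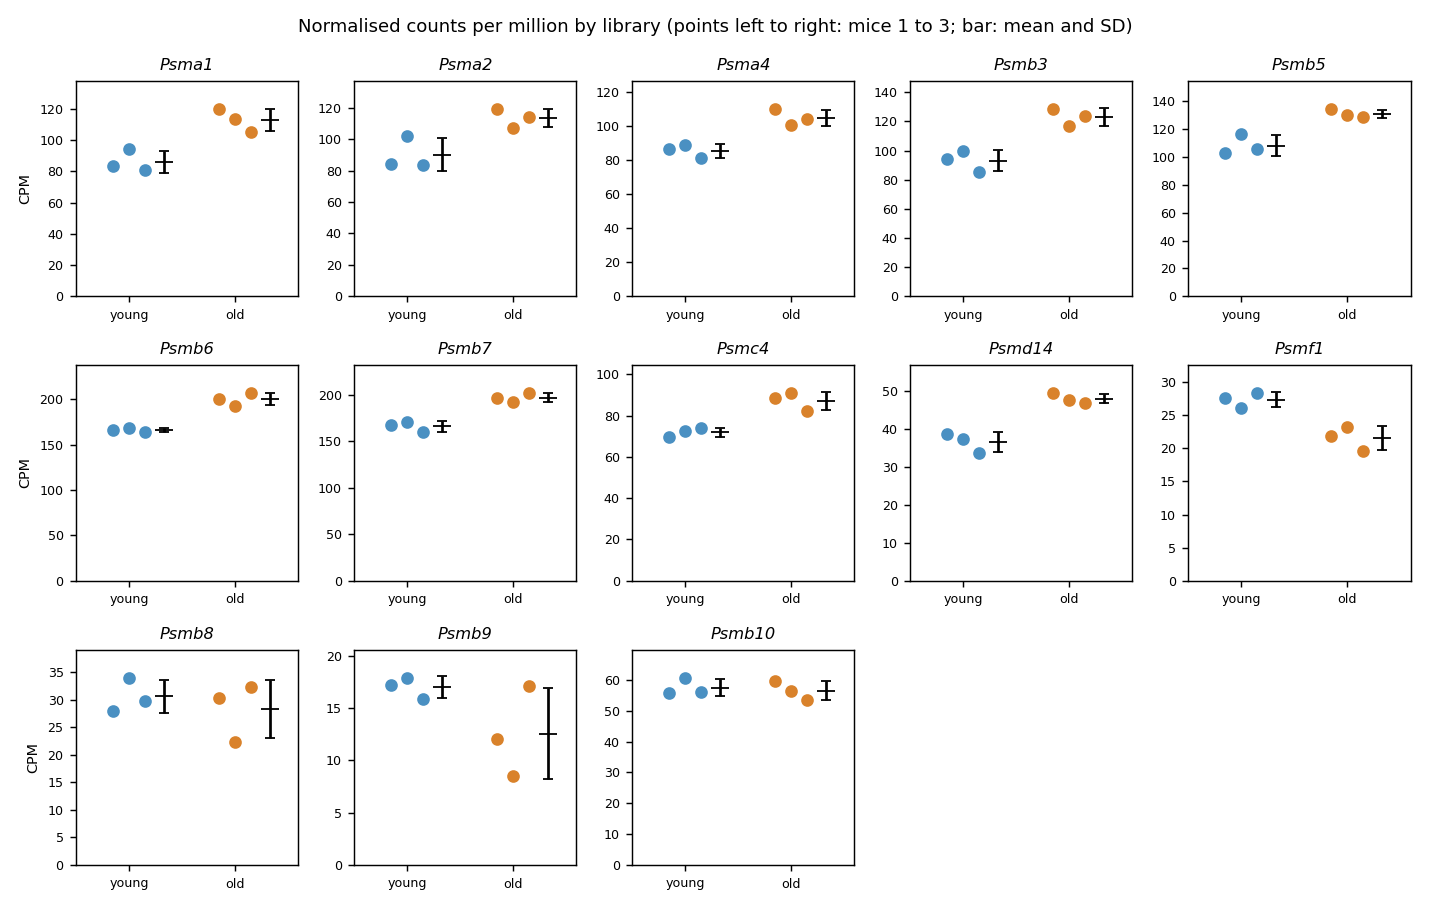
Normalised CPM (y axes, each from 0) in the 3 young and 3 old libraries for the 10 called proteasome genes and the 3 immunoproteasome subunits, with points for mice 1 to 3 from left to right and a bar for the mean and SD. The groups are apart for the 10 called genes and overlap for Psmb8, Psmb9 and Psmb10, and Psmb9 is lowest in old 2 at 8.47 CPM.

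None of the immunoproteasome subunits passed the test, and their fold changes were below 0 under each of the scalings tried. Without young 2, without old 2 or without old 3, however, 1 of the 3 was above 0. The highest log2 fold change over all alternatives was 0.04 for Psmb8 and 0.02 for Psmb10. Psmb8, which replaces Psmb5, was at 28.03, 34.0 and 29.7 CPM in young hearts and at 30.4, 22.4 and 32.2 CPM in old ones. Old 2 was lowest and the other old hearts lay within the young range, and its log2 fold change was -0.11 ± 0.13 (edgeR adjusted p = 0.58). Psmb9, which replaces Psmb6, was at 17.3, 17.9 and 15.9 CPM against 12.04, 8.47 and 17.2 CPM. Old 1 and old 2 were below every young heart while old 3 was within their range, and the log2 fold change was -0.44 ± 0.19 (edgeR adjusted p = 0.12). Psmb9 was called without old 3 (log2 fold change -0.72, edgeR adjusted p = 0.0047) but not when any other library was dropped. Its fold change was weakest without old 2, at -0.21 (edgeR adjusted p = 0.34). Psmb9 was called in 2 of the 18 alternatives, the other being the removal of the length trend. Psmb10, which replaces Psmb7, was at 55.8, 60.8 and 56.1 CPM against 59.7, 56.5 and 53.5 CPM. The groups overlapped and the log2 fold change was -0.03 ± 0.08 (edgeR adjusted p = 0.85).

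The catalytic pairs are encoded at separate loci, and the stretches of 150 bases before their start sites are shown because the members of the Psmb5 and Psmb8 pair and the Psmb6 and Psmb9 pair differ in the letters they hold. Sequences are from RefSeq on GRCm38.p6, 5′ to 3′ on the strand of the gene. In Psmb5 and Psmb6 capitals mark TGACNNNGC, the antioxidant response element bound by NRF factors. In Psmb8 capitals mark TTCNNNGAA, the gamma-activated site found before interferon-gamma-induced genes, and Psmb9 and Psmb10 have neither that motif nor the interferon-stimulated response element core GAAANNGAA in these letters.
Psmb5, chr14:54617996-54618145, minus strand: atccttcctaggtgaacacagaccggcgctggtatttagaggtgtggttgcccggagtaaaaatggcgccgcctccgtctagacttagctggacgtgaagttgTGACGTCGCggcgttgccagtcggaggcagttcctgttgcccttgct
Psmb8, chr17:34198045-34198194, plus strand: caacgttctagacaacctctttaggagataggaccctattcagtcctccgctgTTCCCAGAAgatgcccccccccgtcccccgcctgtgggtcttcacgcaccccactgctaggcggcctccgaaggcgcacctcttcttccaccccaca
Psmb6, chr11:70525207-70525356, plus strand: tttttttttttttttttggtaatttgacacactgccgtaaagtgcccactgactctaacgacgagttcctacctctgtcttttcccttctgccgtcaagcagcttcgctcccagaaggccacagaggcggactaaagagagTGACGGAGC
Psmb9, chr17:34187331-34187480, minus strand: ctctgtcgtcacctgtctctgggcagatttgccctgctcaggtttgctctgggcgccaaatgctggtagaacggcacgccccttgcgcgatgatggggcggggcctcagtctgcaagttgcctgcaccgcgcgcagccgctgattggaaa
Psmb10, chr8:105938393-105938542, minus strand: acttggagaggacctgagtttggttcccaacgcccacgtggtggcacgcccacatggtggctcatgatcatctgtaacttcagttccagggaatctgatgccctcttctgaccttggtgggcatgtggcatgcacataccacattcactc
The match in Psmb5 begins at position -47 from the start site and that in Psmb6 at -9, and the match in Psmb8 begins at -97. On either strand of the 300-base windows (250 before and 50 after the start), TGACNNNGC was in 6 of the 42 proteasome genes with a promoter in the table (14.3%), against 17.1% of the promoters of 10266 tested genes. TTCNNNGAA was in 3 of the 42 (7.14%) against 8.25%, and GAAANNGAA in 7 (16.7%) against 8.75%. Of the 3 immunoproteasome subunits, 1 held TTCNNNGAA and 0 held GAAANNGAA, so the 7 genes with GAAANNGAA all lie outside that class. Such a match describes the letters and not a bound site.

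Of 14 genes of interferon-gamma signalling and peptide loading, which act beside the immunoproteasome, 0 rose (against 11.4% of all genes tested) and 2 fell, Tap1 among them (14.3%, near the 10.6% of all genes). In RefSeq's gene order on chromosome 17, Tap1, a subunit of the transporter that carries proteasomal peptides to MHC class I, lies between Psmb9 and Psmb8. Tap1 was at 22.3, 28.6 and 22.5 CPM against 15.9, 11.9 and 20.7 CPM, which gave a log2 difference of -0.59 ± 0.17 (edgeR adjusted p = 0.028). Old 2 was the lowest library for Tap1, as it was for Psmb8 and Psmb9. Tap1 missed the threshold with young 2, young 3, old 1 or old 2 left out (highest adjusted p over all alternatives 0.11), and was called in 13 of 18 alternatives. Irf1, an interferon-induced transcription factor, did not pass, at 0.14 ± 0.12 (edgeR adjusted p = 0.43). The class I genes B2m, H2-D1 and H2-K1, which present the peptides, had log2 fold changes of 0.38, 0.32 and 0.31 and did not pass (edgeR adjusted p = 0.052, 0.06 and 0.13). They are named here because their sign is opposite to that of Tap1. The median of the 14 genes was -0.03.

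The inducible subunits made up a smaller share of the catalytic subunits in old hearts. On FPKM, which divides counts by gene length and so allows levels of different genes to be added, Psmb8, Psmb9 and Psmb10 were 16.3%, 17.1% and 16.5% of the 6 catalytic subunits in young hearts and 13.8%, 12.3% and 13.9% in old ones. The groups did not overlap, and the share was 16.6% ± 0.41 in the young group and 13.3% ± 0.87 in the old group (SD, n = 3). The FPKM sum of the 3 constitutive subunits was 440.4 ± 8.58 in young and 500.2 ± 18.5 in old hearts, and that of the 3 inducible subunits was 88.0 ± 3.96 and 76.9 ± 8.44. In the constitutive sum every old heart was above every young heart, on FPKM and also in normalised CPM (428.9 to 455.5 in young, 514.9 to 536.6 in old). Of all single genes tested, 13.8% lay above on FPKM and 19.6% in CPM. In the inducible sum every old heart was below every young heart on FPKM, where 27.9% of all single genes lay below, but in normalised CPM the groups overlapped, at 101.1, 112.7 and 101.7 in young and 102.1, 87.4 and 102.9 in old hearts. Within the pairs, Psmb8 was 16.7% ± 0.45 of Psmb8 plus Psmb5 in young and 13.3% ± 2.15 in old hearts. Psmb9 was 9.40% ± 0.42 and 5.91% ± 1.76 of Psmb9 plus Psmb6. Psmb10 was 22.4% ± 0.58 and 19.3% ± 1.08 of Psmb10 plus Psmb7. None of the pair shares overlapped between the groups, and old 2 had the lowest share for the first and second pair. No such share was computed for other genes. The shares also move with Psmb5, Psmb6 and Psmb7, which were themselves called higher. For the third pair the log2 fold change was -0.03 for Psmb10 and 0.25 for Psmb7. These shares are descriptions with no test, since they are scores over chosen genes.

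**Figure D3:**
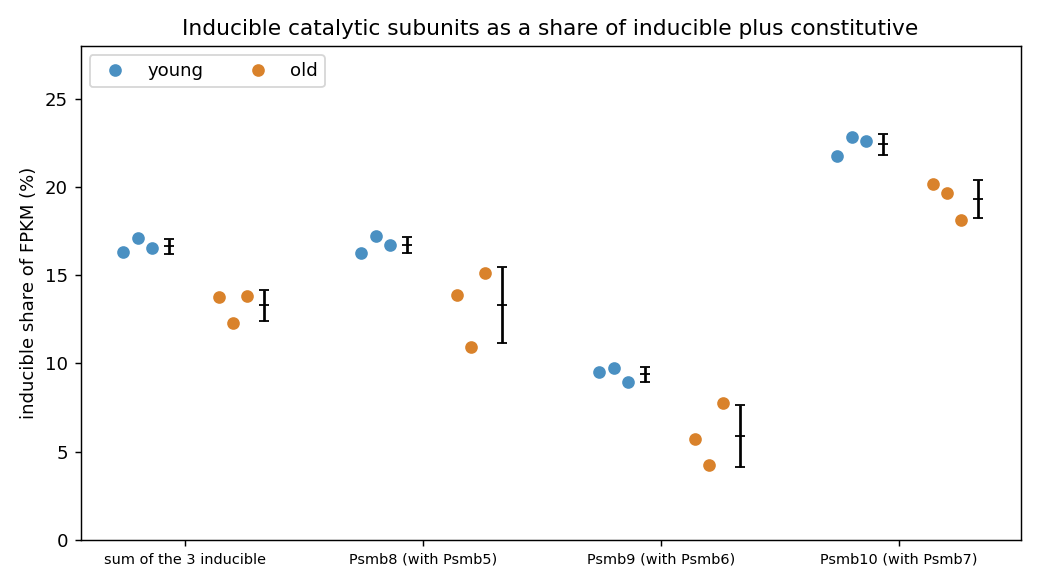
Share of FPKM (y axis, percent) that the inducible subunit takes of the inducible plus constitutive catalytic subunits, for the sum over 3 pairs and for each pair, in 3 young and 3 old libraries with the mean and SD. The old points lie below the young points in each set, with means of 13.3% and 16.6% for the sum.

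In the regulatory particle Psmd14 and Psmc4 rose. Psmd14, the enzyme that cuts ubiquitin chains off the substrate, was at 38.6, 37.3 and 33.7 CPM in young hearts and at 49.4, 47.7 and 47.0 CPM in old ones. The old hearts lay close together above all young hearts, and the log2 fold change was 0.40 ± 0.08 (edgeR adjusted p = 0.0059). It was the gene that stayed called in each of 18 alternatives, where its fold change ran from 0.28 to 0.44. Psmc4, a subunit of the ATPase ring, was at 69.5, 72.4 and 74.0 CPM against 88.5, 90.8 and 82.2 CPM. The groups were apart, at a log2 fold change (old over young) of 0.28 ± 0.08 (edgeR adjusted p = 0.028), but its call was lost when any 1 library other than old 3 was left out (highest adjusted p over all alternatives 0.22). Psmc4 was called in 8 of the 18 alternatives, and not with library size alone or with the length trend removed. Of the 6 ATPases, 1 rose and 4 had a fold change above 0, and of the 11 non-ATPase subunits 1 rose and 8 were above 0. The 2 called of 17 are 11.8%, near the 11.4% of all genes tested, and the 12 of 17 above 0 became 11 with upper-quartile scaling, 9 with library size alone and 8 with the trend over gene length removed.

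Some abundant regulatory subunits had the opposite sign. Psmd2, a large scaffold subunit of the base, was at 246.0, 236.4 and 228.6 CPM in young hearts and at 219.1, 211.7 and 193.2 CPM in old ones. All old hearts were below all young hearts, yet the log2 fold change of -0.19 ± 0.08 did not pass (edgeR adjusted p = 0.13). With scaling by library size alone it was -0.27 and was called (edgeR adjusted p = 0.03). Psmd4, a ubiquitin receptor, was at 164.4, 150.8 and 151.5 CPM against 147.9, 137.8 and 147.2 CPM, and the log2 fold change was -0.11 ± 0.08 (edgeR adjusted p = 0.36). Psmc3, an ATPase, was at 313.2, 314.5 and 305.0 CPM against 304.0, 294.2 and 278.0 CPM, at a log2 fold change (old over young) of -0.09 ± 0.08 (edgeR adjusted p = 0.44). These 3 subunits were chosen from their values and are those of the regulatory particle with all old hearts below all young ones in CPM. That is 3 of 17, where 20.3% of all genes tested had every old heart below every young heart.

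The letters before the start sites also differed between the regulatory and core particles. The motif CCGGAAG, bound by ETS-family factors, was searched on both strands and stands as CTTCCGG where it lies on the other strand. It was in 9 of 14 regulatory subunit promoters (64.3%) and 1 of 11 core subunit promoters (9.09%), against 19.4% of the promoters of tested genes. Over all members it was in 16 of 42 (38.1%). Among the 8 genes called higher that have a promoter in the table, 0 held it. Most genes called higher are core subunits, a class where the motif was rare whether called or not. A link between the motif and the fold changes was not tested. None of the regulatory subunits that held it passed the test, and their signs differed. Psmc2, Psmc6, Psmd6, Psmd11, Psmd12 and Psmd13 had log2 fold changes above 0 (0.05 to 0.18), and Psmc1, Psmd2 and Psmd4 below 0. The stretches of Psmd14, which rose, and of Psmd2 and Psmd4, which were picked for their sign, are shown with the motif in capitals.
Psmd14, chr2:61711544-61711693, plus strand: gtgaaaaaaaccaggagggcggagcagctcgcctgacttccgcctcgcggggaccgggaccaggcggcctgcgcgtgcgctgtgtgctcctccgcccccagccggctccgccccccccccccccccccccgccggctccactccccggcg
Psmd2, chr16:20651502-20651651, plus strand: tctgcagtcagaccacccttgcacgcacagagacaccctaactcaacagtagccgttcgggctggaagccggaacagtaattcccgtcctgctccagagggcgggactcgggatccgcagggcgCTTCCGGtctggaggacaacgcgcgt
Psmd4, chr3:95042615-95042764, minus strand: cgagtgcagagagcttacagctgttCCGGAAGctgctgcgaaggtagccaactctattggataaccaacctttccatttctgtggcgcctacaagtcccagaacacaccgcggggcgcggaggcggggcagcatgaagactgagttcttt
Psmd14 had no match in its window, while the match began at -26 in Psmd2 and at -125 in Psmd4. The CCAAT box (CCAAT) was in 15 of the 42 promoters (35.7%) against 42.6% of tested genes. The paired heat shock elements GAANNTTC and TTCNNGAA were in 3 (7.14% against 6.96%) and 2 (4.76% against 8.31%). The TTCNNGAA match in Psmd4 overlaps its ETS-family match.

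Summed over subunits, old hearts had fewer regulatory transcripts per core transcript. The FPKM sum of the core subunits was 1503, 1573 and 1445 in young and 1730, 1617 and 1690 in old hearts, and that of the regulatory subunits was 1218, 1188 and 1166 and 1214, 1141 and 1118. The core sums did not overlap and the regulatory sums did. The ratio of the regulatory to the core sum was 0.79 ± 0.03 in the young group and 0.69 ± 0.02 in the old group (SD, n = 3), without overlap, and this is a description with no test. Levels within a particle were unequal. Mean FPKM ran from 30.3 for Psma3 to 172.0 for Psmb4 in the core without Psma8, a 5.67-fold span, and from 27.3 for Psmd14 to 184.5 for Psmc3 in the regulatory particle, a 6.75-fold span. The subunit of the regulatory particle with the largest rise was thus also its least abundant transcript.

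Against the mean of the young hearts, the median core subunit was at 0.26, 0.22 and 0.20 log2 units in old 1 to 3. The median regulatory subunit was at 0.17, 0.10 and 0.00 in the same hearts. For the core each old heart was above each young heart, and for the regulatory particle old 1 and old 2 were while old 3 was within the young range. The young hearts lay between -0.08 and 0.09 for the core and between -0.03 and 0.02 for the regulatory particle.

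Among the other activators and the inhibitor, only Psmf1 was called. Psmf1 encodes PI31, a protein that inhibits the core particle in the test tube. It stood at 27.6, 26.1 and 28.3 CPM in young hearts and at 21.9, 23.2 and 19.7 CPM in old ones. All old hearts were lower, and the log2 fold change was -0.34 ± 0.09 (edgeR adjusted p = 0.023). Psmf1 missed the threshold in DESeq2 and with young 1, young 3, old 1 or old 3 left out (highest adjusted p over all alternatives 0.094). Psme1, a subunit of the interferon-inducible PA28 activator, was at 124.6 to 140.1 CPM in young and 144.1 to 156.5 CPM in old hearts, without overlap, but did not pass, at 0.21 ± 0.08 (edgeR adjusted p = 0.097). Its partner Psme2 was at 0.03 ± 0.09, and the transcripts of Psme2 and its copy Psme2b (-0.03 ± 0.13) are 99.4% identical, so the split of reads between them is uncertain. Psme3, the nuclear PA28 form, and Psme4, which encodes the activator PA200, were at 0.11 and 0.09.

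The assembly chaperones, which build the core and the base, showed no called member among 7. Their log2 fold changes ran from -0.07 (Psmd10) to 0.08 (Psmd9), with a median of -0.05, and 3 of the 7 were above 0. Psmc3ip, a meiotic recombination factor, and Psme3ip1, which binds PA28 gamma, were at 0.27 ± 0.25 and 0.23 ± 0.10 and did not pass (edgeR adjusted p = 0.47 and 0.13). Psme3ip1 was called without old 1 (0.33, edgeR adjusted p = 0.045).

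Counted by library, 19 of the 49 tested genes had every old heart above every young heart in CPM (38.8%, against 19.6% of all genes tested), and 4 had every old heart below (against 20.3%). The core particle gave 11 of its 14 above and 0 below, and the regulatory particle 7 above and 3 below. On FPKM, which is not scaled for composition, 10 genes were above (13.8% of all genes) and 5 below (27.9% of all genes). The core particle then gave 7 above and 0 below, and the regulatory particle 3 above and 4 below. Fewer members thus stood above on FPKM, and the core particle had more members above than below on both scales.

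Short transcripts as a class were higher in old hearts, and most proteasome transcripts are short. Of the 49 tested genes 38 lie in the shortest of 5 equal classes of all tested genes (206 to 1957 bases), including all 14 core subunits, 13 of 17 regulatory subunits and all 9 genes that rose. In that class 18.1% of all genes were called higher and 3.45% lower, with a median log2 fold change of 0.13, against 6.24% and 16.2% and a median of -0.10 in the longest class. With the trend over length taken out of the fold changes, the core median was 0.09, with 9 subunits above 0 and 5 below, and the regulatory median was -0.02. In that fit Psma1 (0.25, edgeR adjusted p = 0.049) and Psmd14 (0.28, edgeR adjusted p = 0.026) were called higher. Psmb9 (-0.60, edgeR adjusted p = 0.043), Psmd4 (-0.24, edgeR adjusted p = 0.049) and Psmf1 (-0.33, edgeR adjusted p = 0.03) were called lower. Why fold changes followed length was not tested.

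**Figure D4:**
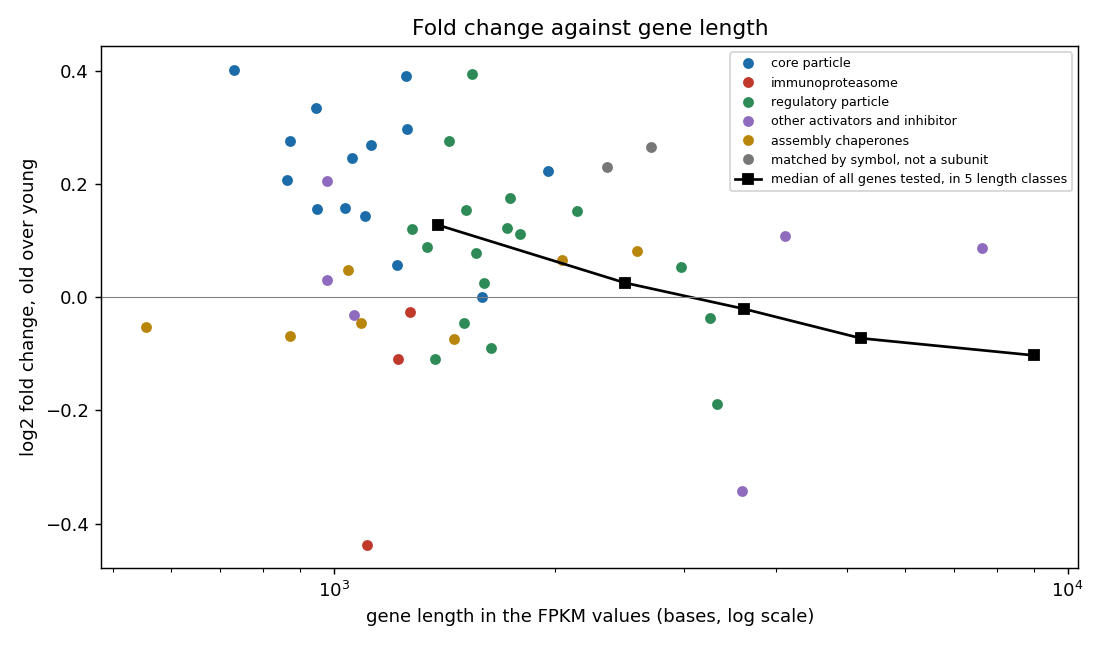
Log2 fold change (y axis, old over young) of each tested proteasome gene against gene length (x axis, bases, log scale), with colours for the groups and a black line for the median of all genes tested in each of 5 length classes. The line falls from 0.13 in the shortest to -0.10 in the longest class. It starts at 1388 bases, the median length of the shortest class, and most core subunits are shorter than that. Most core subunits lie above the median of 0.13 of that class, and the 3 immunoproteasome subunits lie below that median.

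Of 29 proteasome cofactors that the symbol rule does not take, 28 were listed and tested, with a median of 0.08. Of these 4 rose (14.3%) and 2 fell (7.14%), shares near the 11.4% and 10.6% of all genes tested. Ubqln1, a shuttle that brings ubiquitinated proteins to the proteasome, was at 65.2, 65.1 and 68.2 CPM in young and 101.1, 99.8 and 71.4 CPM in old hearts. Old 1 and old 2 were far above the young hearts and old 3 only just, and the log2 fold change was 0.46 ± 0.12 (edgeR adjusted p = 0.019). Its close relative Ubqln2 fell, at -0.33 ± 0.10 (edgeR adjusted p = 0.031). Zfand2a, an arsenite- and heat-inducible proteasome-associated protein, was at 22.8, 25.3 and 22.9 CPM against 43.1, 33.4 and 26.7 CPM. It was highest in old 1 and least raised in old 3, and the log2 fold change was 0.54 ± 0.15 (edgeR adjusted p = 0.021). Txnl1, a thioredoxin bound to the regulatory particle, rose by 0.29 ± 0.08 (edgeR adjusted p = 0.021), and Adrm1, a ubiquitin receptor of the regulatory particle, rose by 0.27 ± 0.08 (edgeR adjusted p = 0.024). The last of these, like Ubqln2, is named here because of its value. Adrm1, Txnl1 and Zfand2a missed the threshold with young 1, young 3 or old 1 left out (highest adjusted p over all alternatives 0.19, 0.091 and 0.13), Ubqln2 with young 1, young 3 or old 2 left out (0.13) and Ubqln1 with any library but old 3 left out (0.12). Of 18 alternatives, Adrm1 and Txnl1 were called in 11 each, Zfand2a in 12, Ubqln2 in 13 and Ubqln1 in 10.

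The transcript of a factor that induces proteasome genes did not pass. Nfe2l1, which drives transcription of proteasome subunits when proteasome activity is short, was at 563.2, 539.5 and 584.1 CPM in young and 604.8, 636.4 and 593.0 CPM in old hearts. Old hearts were all slightly higher, as for 19.6% of all genes tested, and the log2 fold change was 0.12 ± 0.08 (edgeR adjusted p = 0.30). Nfe2l1 protein and its activity were not measured, and any part of Nfe2l1 in the subunit results was not tested. Ngly1, which removes sugar chains from proteins including Nfe2l1 protein, fell from 35.3, 32.6 and 29.6 CPM to 24.2, 26.1 and 24.7 CPM, which gave a log2 difference of -0.38 ± 0.09 (edgeR adjusted p = 0.014). Its call was lost without young 1 or old 1. Pomp, the chaperone that matures the core particle, overlapped between groups at 0.13 ± 0.11 (edgeR adjusted p = 0.41).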

How the data were processed

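RNA was sequenced from hearts of 3 young and 3 old mice. The deposited counts are whole reads per gene, and the FPKM values deposited by the authors are the same counts divided by gene length and library total, as a comparison of both tables showed. Per the labels' protocols, a TruSeq Stranded mRNA kit was used for the libraries. Per the submitters' processing notes, the tools were Bowtie2, Cufflinks, DESeq, HISAT2, HTSeq, StringTie and Trimmomatic, with GRCm39. Their versions, roles and strand setting were not given in the sources used here, so overlapping antisense reads cannot be told apart. All 12 per-sample files equalled the tables.

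Genes were tested with edgeR 4.0.16 (R 4.3.3; filterByExpr, TMM, quasi-likelihood F test, all 6 libraries, no covariate), with Benjamini-Hochberg adjustment over 12893 genes and a threshold of 0.05. Standard errors come from the fold change and F. CPM values are TMM scaled, and 1 count is worth 0.0774 to 0.0885 CPM. The p-values set the difference between the groups against the spread between these samples. Replicates differed by more than sampling noise (chi-square per degree of freedom 7.9 to 16.7).

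Full values are given for called members and the 6 catalytic subunits. From each other list up to 4 called genes by smallest p are named, and Nfe2l1, Pomp and Irf1 always. One gene that this rule takes is not reported here. The members and lists were chosen with earlier results of these data known, and no test over a list was made. Alternatives were scaling by library size, upper quartile or RLE, 2 other filters, a replicate block, DESeq2 1.42.0, limma 3.58.1 (voom, and log2 FPKM with pseudocounts of 1 and 0.1), a loess fit over length (span 0.5) and each library left out. Promoters come from RefSeq on GRCm38.p6, an older build than that of the counts, so no coordinates were joined. Psme2 and Psme2b transcripts were aligned with blastn 2.17.0. On simulated counts for old against young over 12798 genes, the test recovered 69.4% of the 1.5-fold changes and 98% of the 2-fold changes, with 6.19% false among 194 calls. The simulation changed far fewer genes than were called in the data, with alternating signs and no trend over gene length. Its shares therefore need not hold for the real comparison. The fitted changes of the members are smaller than 1.5-fold.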

Additional observations from a re-analysis of the deposited data

How the results depend on the processing

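All 10 called genes kept their sign in each of 18 alternatives, and Psmd14 was called in all of them. With upper-quartile scaling 5 members were higher, 3 of them in the core. With library size alone 3 were higher and 2 lower (core 2 higher, regulatory 1 higher and 1 lower), and limma on log2(FPKM + 1) and on log2(FPKM + 0.1) gave the same counts of 3, 2, 2, 1 and 1. Without a filter, log2(FPKM + 1) gave 4 higher and 2 lower (core 3 higher, regulatory 1 and 1), the fourth being Psma8. DESeq2 called 0 lower. With the length trend removed 2 members were higher and 3 lower (core 1 higher, regulatory 1 and 1, immunoproteasome 1 lower). With each library left out in turn, 2 to 8 members were higher and 0 to 1 lower. The core count was 1 to 7, the regulatory count 1 to 2, and the immunoproteasome had 0 to 1 lower. The inducible share differed by -3.63 to -2.85 percentage points, against -3.35 over all libraries.

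Among all called genes, the share higher was 51.7% with TMM, 40.2% with upper-quartile scaling, 32.7% with library size and 35.1% on FPKM.

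The replicate block left 8 members higher and 1 lower (core 6, regulatory 2), losing Psmb7. Same-numbered mice correlated at 0.078, 0.078 and 0.007, and young 3 correlated best with old 2, so the numbers were treated as names.

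Recovery was simulated for changes of 1.5-fold and more, which is larger than the fitted change of any member, so recovery at the members' sizes was not tested. A member that missed the threshold is not shown to be equal between ages.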
